A study of Caenorhabditis elegans with 4 samples.

Results

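The histone genes of Caenorhabditis elegans were taken as the genes whose symbol starts with his- and a digit. There were 72 of them among 19971 protein-coding nuclear genes of the RefSeq gene table. Chaining neighbours at most 5 kb apart placed them in 20 loci on all 6 nuclear chromosomes. Of these loci, 15 held at least 2 his- genes, called clustered here, with 67 genes in all, and 5 held a single his- gene, called isolated. The clustered loci comprised 5 pairs and 10 loci of 3 or more genes, the largest with 13 genes on chromosome II. By their known products, 16 members encode H4, 15 H3, 17 H2A, 16 H2B, 1 the linker histone H1 (his-24), and 5 variant histone H3 of the H3.3 kind (his-69, his-70, his-71, his-72 and his-74). The short models his-39 and his-73 were given no class.

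The data were 4 lists of ChIP-seq peaks from whole late embryos, aged for 3.5 hours after collection, of strain JA1597. This strain carries a transgene of cfp-1 fused to GFP under the dpy-30 promoter at a Mos insertion site on chromosome IV, and all samples share it. The sources used here do not say whether the embryos also make untagged CFP-1. An anti-GFP serum was used for CFP-1::GFP and an anti-H3K4me3 antibody for trimethylated lysine 4 of histone H3, with 2 samples each, numbered RC03 and RC04. The labels do not state that both numbers stand for separate cultures, and the spread between numbers may therefore be technical. The embryos were not separated by cell type, so a peak present in more cells and one stronger in fewer cells cannot be told apart. Read depth is unknown, because the lists hold positions and scores without read counts, and a control list from worms lacking GFP was not analysed here.

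Core histones H2A, H2B, H3 and H4 form the nucleosome around which DNA is wrapped, and H1 binds the linker DNA between nucleosomes. Most worm core histone genes are short, lack introns and lie in clusters in which an H2A gene neighbours an H2B gene and an H3 gene neighbours an H4 gene, each pair being transcribed outwards from a shared promoter. Their expression is tied to DNA replication, whereas variants such as H3.3 are also made and deposited outside S phase. CFP-1 is the CXXC zinc finger subunit of the COMPASS complex, which methylates lysine 4 of histone H3, a mark found mainly at active promoters.

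Nearly all histone genes carried both signals. A peak lay within 500 bp of an end of the gene in both CFP-1 lists at 69 of 72 his- genes, against 26% of all genes, and in both H3K4me3 lists at 71 of 72, against 30.6% of all genes. All 4 lists had a peak at the same 69 genes, or 95.8%, against 23.2% of all genes. The gene table gives no strand, so the end at which a transcript starts is not known from it, and both ends were searched. Where a peak was required at each end, which sets a lower limit for the starts, 65 his- genes remained for CFP-1, against 4.17% of all genes, and 69 for H3K4me3, against 7.4%. The median length was 384 bp for his- genes and 2006 bp for all genes, so that the ends of histone genes lie closer together. The table is of assembly WBcel235 and the peaks are in build ce10, whose chromosome lengths differ by about 100 bp at most; moving the gene ends by 100 bp in either direction left the counts at 69 and 71.

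**Figure D1:**
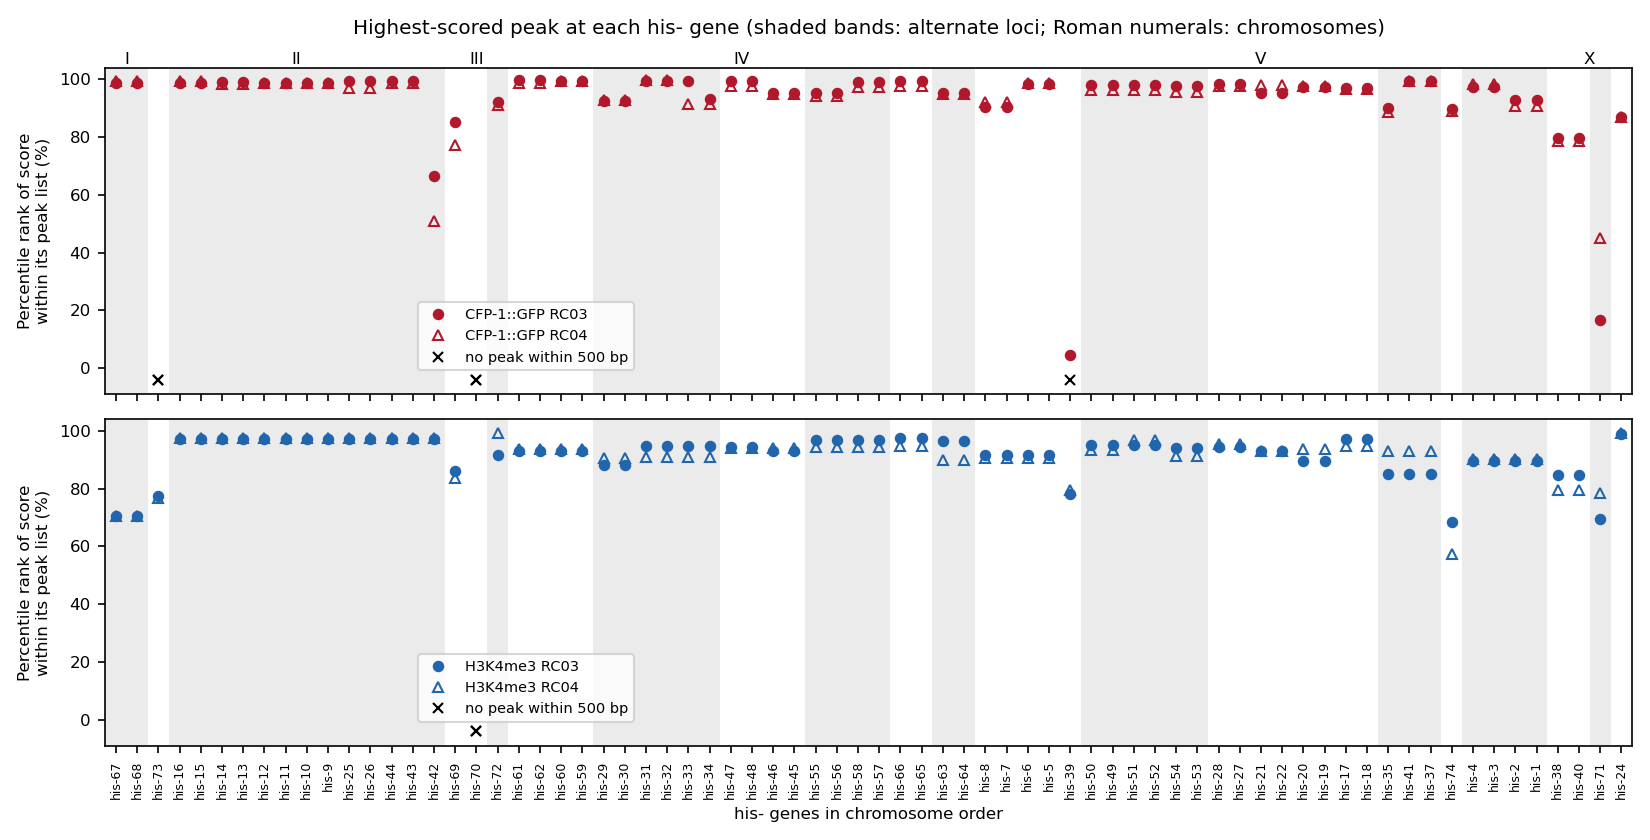
Percentile rank of the highest-scored peak within 500 bp of each his- gene (y axis, 0 to 100% of its own list) in chromosome order (x axis), with CFP-1 above and H3K4me3 below; filled circles are RC03, open triangles RC04 and crosses genes without a peak. Most CFP-1 points lie above 90%, and his-42, his-71, his-39, his-70 and his-73 stand apart.

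The exceptions were his-70, his-73 and his-39. The gene his-70, which encodes an H3.3-like protein, had no peak in any list, as did 61.8% of all genes, and the nearest peaks lay 1366 and 1519 bp away for CFP-1 and 1237 and 1233 bp away for H3K4me3. The short model his-73 had H3K4me3 peaks with top scores of 34.2 in RC03 and 27.1 in RC04, while its nearest CFP-1 peaks lay 926 and 938 bp away. The RC03 peak lay over the gene, but the top RC04 peak lay beside it, and the RC04 peak over the gene scored 21.2. Another gene also had an end within 500 bp of each of these H3K4me3 peaks. The other short model, his-39, had H3K4me3 scores of 36.0 and 33.96, a CFP-1 peak of score 3.19 in RC03 and none in RC04, where the nearest lay 1009 bp away. Scores are the authors' own values in −log10 units. Among genes inside the 500 bp limit, the farthest CFP-1 peak lay 164 bp from an end (his-69 in RC04), so no gene sat close to the limit from inside.

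Per list, the share of his- genes with a peak was 96.5% ± 0.982 (SD, n = 2) with CFP-1, whereas it was 98.6% ± 0 (SD, n = 2) with H3K4me3. CFP-1 RC03 had a peak at 70 his- genes (28% of all genes) and CFP-1 RC04 at 69 (28.2%). Each H3K4me3 list had one at 71, where RC03 had 32.5% and RC04 32.4% of all genes. The antibodies differed by 2.08 percentage points, with a two-sided p of 0.3333 by exact permutation over lists; 2 lists against 2 allow no smaller value, so this design cannot pass a test of the difference. It rests on his-39 and his-73.

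The histone genes also stood high within the CFP-1 lists. A peak from the 5% with the highest scores lay at 53 of 72 his- genes in RC03 and at 46 in RC04, against 3.66% and 3.7% of all genes. For H3K4me3 the numbers were 26 in RC03 and 19 in RC04, against 5.44% and 5.97% of all genes. In each H3K4me3 list, 13 of these genes were reached by the same single peak on chromosome II. Neighbouring genes share peaks, so each peak was also counted once. The his- genes then had 53 distinct CFP-1 peaks in RC03 and 46 in RC04, with median scores of 105 and 130, beside 12.1 and 12 over the whole lists. They had 37 and 43 distinct H3K4me3 peaks, with median scores of 65.6 and 61.9, beside 6.84 and 6.61 over the whole lists. Of the distinct CFP-1 peaks, 26 in RC03 and 23 in RC04 ranked in the upper 5% (49.1% and 50%). Of the distinct H3K4me3 peaks, only 7 and 5 did (18.9% and 11.6%). Histone peaks were wide as well. The median width was 877 and 772 bp for CFP-1, beside 275 and 274 bp over the lists, and 1850 and 931 bp for H3K4me3, beside 298 and 264 bp. Of the distinct peaks, 18 of 53 and 14 of 46 for CFP-1, and 20 of 37 and 21 of 43 for H3K4me3, also lay within 500 bp of an end of another protein-coding gene.

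**Figure D2:**
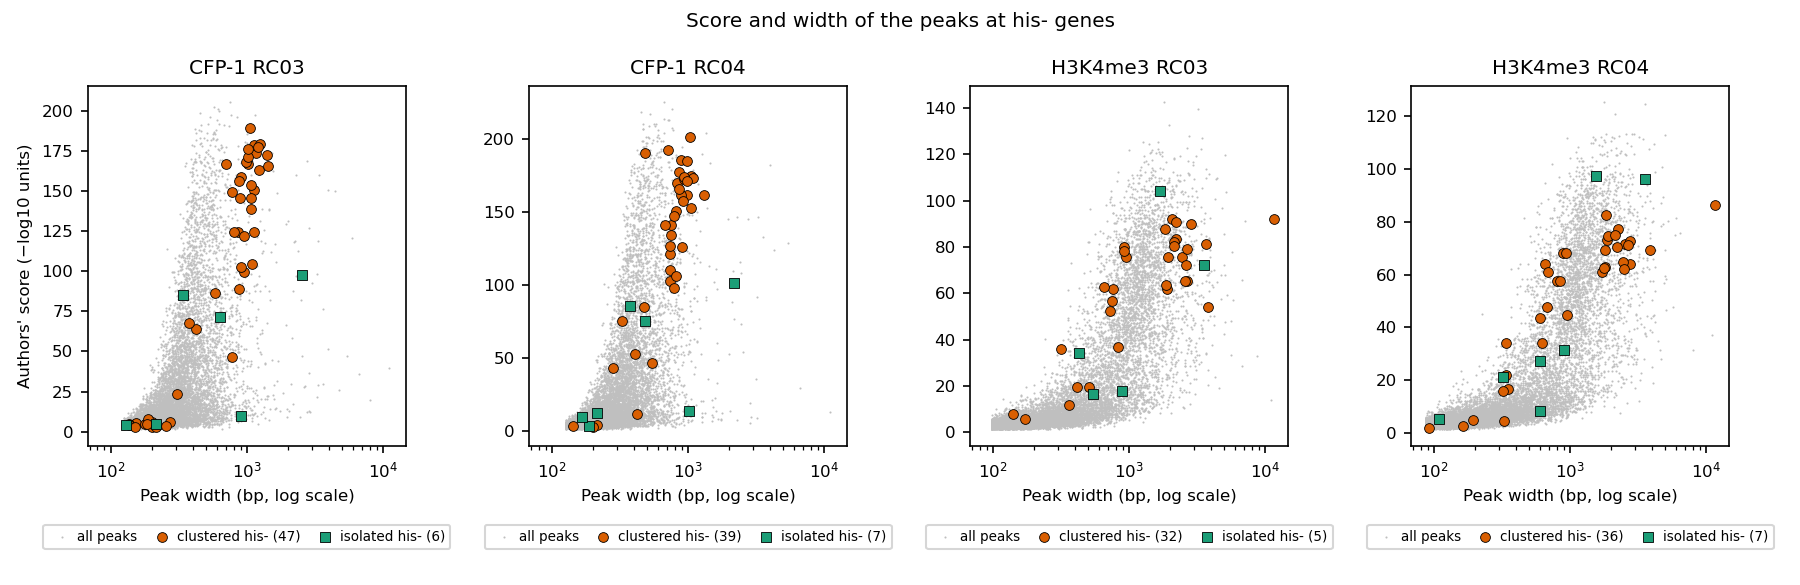
Authors' score (y axis, −log10 units) against peak width (x axis, bp, log scale) in the 4 lists; grey points are all peaks, orange circles peaks at clustered and green squares peaks at isolated his- genes, each peak drawn once. The strong CFP-1 peaks at clustered genes lie at widths near 1000 bp, to the right of most other peaks of like score, and the H3K4me3 peak at the far right is 11561 bp wide in RC03 and 11533 bp in RC04.

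The sources used here do not say how reads from near-identical gene copies were placed. The core histone copies repeat even in spacing: of the 31 gaps of at most 500 bp between neighbouring his- genes, 22 had a length that occurred more than once, such as 292 bp in 6 gaps. Reads from identical stretches cannot be assigned to 1 copy, so scores of single copies are uncertain, and a like score at several copies is not independent evidence for each.

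The largest locus, on chromosome II, lay wholly or nearly wholly under H3K4me3. A single H3K4me3 peak covered it in each list, at chrII:13817110-13828670 with a score of 92.0 in RC03 and at chrII:13817214-13828746 with a score of 86.2 in RC04 (ce10). At 11561 and 11533 bp these were the widest peaks of their lists, and both reached all 13 his- genes of the locus. CFP-1 instead formed a series of separate peaks. Each of the 6 neighbouring gene pairs of the locus had its own strong CFP-1 peak, with scores between 163.2 and 176.1 in RC03 and between 150.7 and 185.4 in RC04. The first of them, over the H2A gene his-16 and the H2B gene his-15, lay at chrII:13817691-13818716 with a score of 166.7 in RC03 and at chrII:13817748-13818636 with 185.4 in RC04. The H3 gene his-42 at the edge of the locus has no close partner, and its CFP-1 peak scored 23.7 in RC03 and 12.2 in RC04. CFP-1 peaks covered 69.9% and 56.3% of the locus, and H3K4me3 covered 99.8% and 100%.

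**Figure D3:**
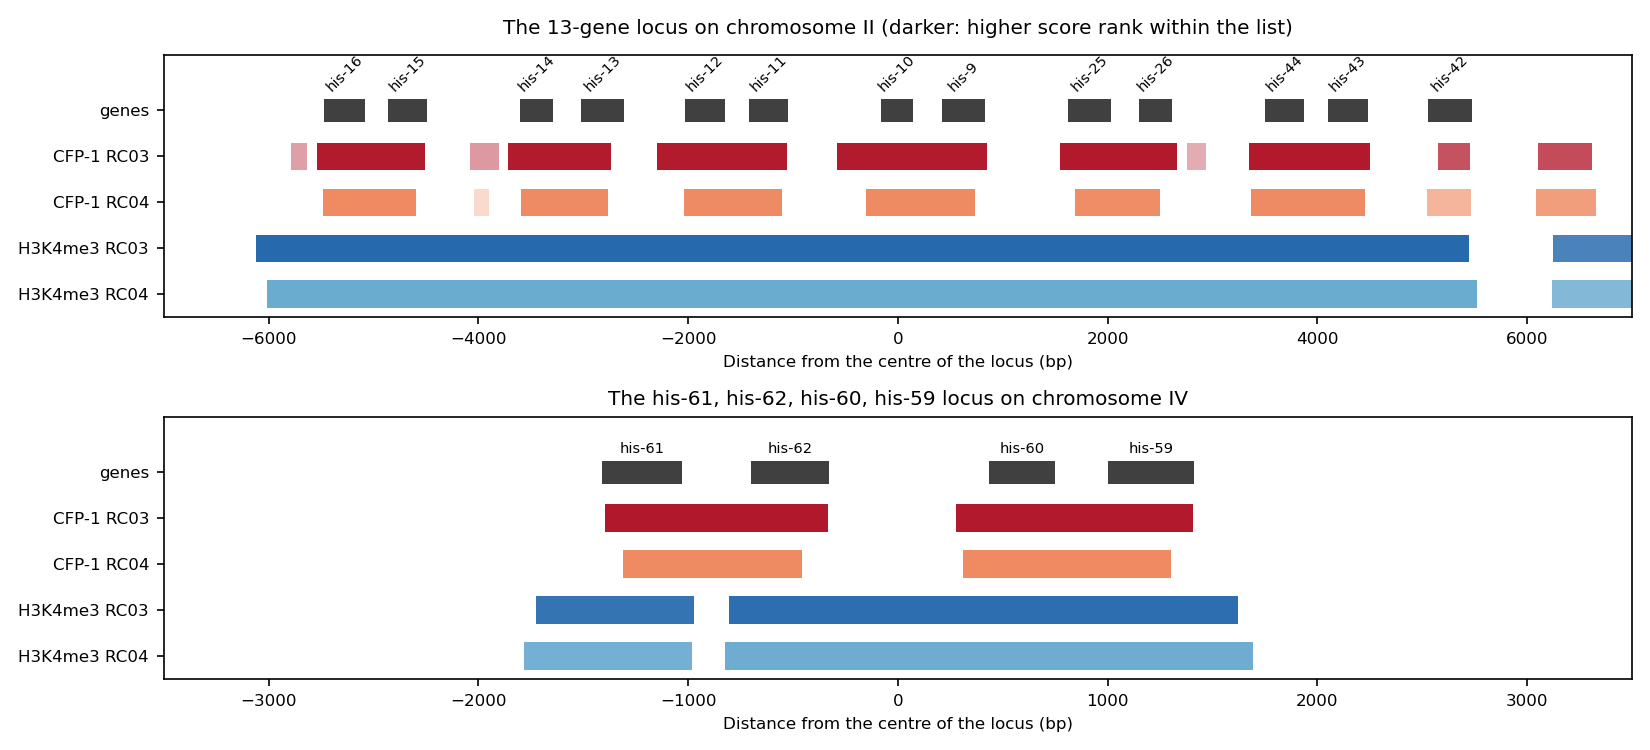
Genes (dark boxes) and peaks of the 4 lists (coloured bars, darker for a higher score rank within the list) around the 13-gene locus on chromosome II and a 4-gene locus on chromosome IV; the x axis is the distance from the centre of the locus in bp. CFP-1 bars cover the gap of each gene pair and part or all of its genes. In each H3K4me3 list, 1 bar spans all or nearly all of the first locus, and a break in H3K4me3 lies between his-61 and his-62 in the other.

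In the other clusters too, CFP-1 peaks lay over the gaps between close neighbours. The 52 gaps between adjacent his- genes fell into 31 short ones of 227 to 368 bp and 21 long ones of 577 to 2170 bp. Of the short gaps, 16 lay between an H2A and an H2B gene, 14 between an H3 and an H4 gene, and 1 between the H4 gene his-67 and the H2A gene his-68. A CFP-1 peak covered the centre of all 31 short gaps in both lists, where 14.2% of all gaps of at most 500 bp between protein-coding genes were so covered. That background was not limited to 227 to 368 bp and, without strand, not to any gene orientation. It therefore does not show how common such coverage is at shared promoters of like length. Over the long gaps, 3 of 21 centres were covered in both CFP-1 lists, beside 6.96% of gaps of 577 to 2170 bp between all genes. In RC03 alone 6 long gaps were covered, beside 7.67% of such gaps. One of these, between his-41 and his-37, holds another protein-coding gene. This division of gaps was chosen after the peaks had been seen, and it has no test, since copies of a cluster are not independent.

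The peaks over the short gaps were strong. Their scores ran from 46.5 to 189.0 in RC03, with a median of 154, and from 46.7 to 201.2 in RC04, with a median of 158. In RC03, 25 of the 31 ranked in the upper 5% of the list, and 22 did in RC04. The median distance between the middle of the peak and the centre of the gap was 51 bp in RC03 and 48.5 bp in RC04, which is within the difference between the builds. The middle of the peak lay inside the gap in 27 of 31 cases in RC03 and in 29 in RC04. At his-66 and his-65 it lay outside in both lists, 194 and 196 bp from the centre of a gap of 305 bp. Over gaps between H3 and H4 the median score was 154 and 149, and over gaps between H2A and H2B it was 152 and 160. The 3 long gaps covered in both lists had far weaker peaks, with scores between 5.92 and 22.5 in RC03 and between 4.19 and 16.6 in RC04. Of the 10 his- genes outside such pairs, his-37 had the strongest CFP-1 peak, with scores of 176.3 and 190.0. This H4 gene shares that peak with an end of his-41, and ends of 2 other genes lie within 500 bp of it. In RC03 that peak covered the whole long gap between his-41 and his-37, so not every peak over a long gap was weak. In RC04 peaks covered 68.1% of that gap but not its centre.

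H3K4me3 calls dipped at the centre of the short gaps. At 300 bp to either side of the centre, all 31 gaps carried an H3K4me3 peak in both lists. At the centre itself 26 were covered in RC03 and 22 in RC04, with 21 covered in both, beside 16.6%, 17% and 15.9% of short gaps over all genes. A break, meaning that one H3K4me3 peak ended and the next began inside the gap, occurred in 6 short gaps in RC03 and in 9 in RC04. It occurred in both lists in 4 of 31, at his-61 and his-62, his-46 and his-45, his-55 and his-56, and his-8 and his-7. H3K4me3 also left part of the gap uncovered in both lists at his-67 and his-68 and at his-38 and his-40, where the uncovered stretch did not lie wholly inside the gap in at least 1 list. Breaks were not particular to short gaps, since 7 of 21 long gaps had one in both lists. They were not counted in gaps between all genes, so they cannot be read as a trait of his- pairs. Nor was the lower H3K4me3 coverage near the centre. In long gaps it fell to 71.4% at 100 bp from the centre in RC03 and to 71.4% at 175 bp in RC04. At 400 bp to the left and right it was 85.7% and 95.2% in RC03, and 85.7% and 90.5% in RC04. No CFP-1 list had a break in a short gap. Over the long gaps, H3K4me3 covered 17 of 21 centres in both lists, beside 11.6% over all genes.

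**Figure D4:**
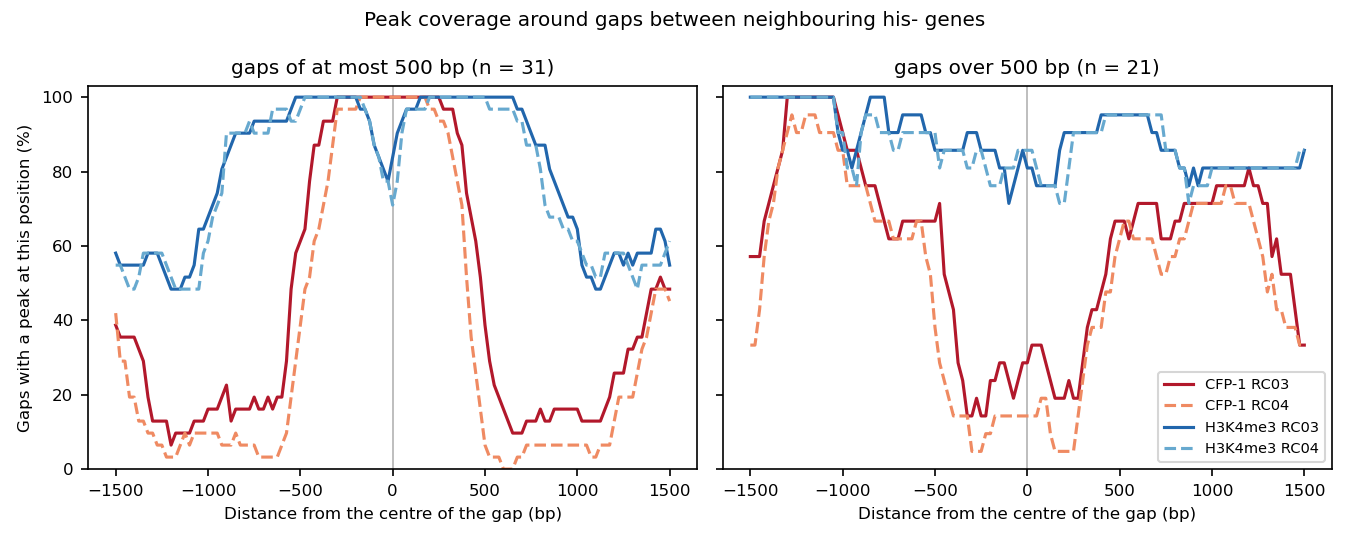
Percent of gaps with a peak (y axis) by distance from the centre of the gap (x axis, bp), for the 31 short gaps on the left and the 21 long gaps on the right; solid lines are RC03, dashed lines RC04, red CFP-1 and blue H3K4me3. CFP-1 reaches 100% at the centre of short gaps, where H3K4me3 dips to 83.9% in RC03 and 71% in RC04.

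The highest CFP-1 peaks of the other clusters on chromosome IV were of similar size. The highest of the his- peaks in RC03 lay over his-61 and his-62 at chrIV:7485852-7486913, with a score of 189.0, and the RC04 peak there scored 177.1. In RC04 the highest lay over the H4 and H3 genes his-31 and his-32 at chrIV:8333681-8334723, with a score of 201.2, and the RC03 peak there scored 179.6. Both stand near the top of their lists, whose maxima were 205.3 and 224.9. The remaining loci of chromosome IV had their highest CFP-1 scores at his-47 and his-48 (177.3 and 161.7), at his-58 and his-57 (171.4 and 152.8), at his-66 and his-65 (172.2 and 161.7) and at his-63 and his-64 (124.4 and 127.0), in the order RC03 and RC04. The highest H3K4me3 score of a chromosome IV locus lay between 75.7 and 92.0 in RC03 and between 60.9 and 74.7 in RC04.

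On chromosome V, each cluster had a CFP-1 peak in the upper 5% of both lists. The highest peaks lay over his-6 and his-5 (158.5 in RC03 and 173.8 in RC04), over his-51 and his-52 (153.9 and 141.4), over his-41 and his-37 (176.3 and 190.0) and over his-4 and his-3 (145.8 and 171.4). In the 8-gene locus of his-17 to his-22, his-27 and his-28 the highest peak differed between the lists, with 156.2 over his-28 and his-27 in RC03 and 165.6 over his-21 and his-22 in RC04. The highest H3K4me3 scores of these 5 loci lay between 54.2 and 90.8 in RC03 and between 61.9 and 82.7 in RC04.

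Both signals did not always go together. The pair his-67 and his-68 on chromosome I had CFP-1 scores of 166.7 and 192.5, in the upper 2% of both lists by rank (98.9% and 99.5%), while its highest H3K4me3 peaks scored 19.8 and 16.5 and ranked at 70.7% in both lists. The pair of his-38 and his-40 on the X chromosome, an H4 and an H3 gene, had the weakest CFP-1 peak of any short gap. It scored 46.5 in RC03 and 46.7 in RC04, ranks of 79.7% and 78.8%, with H3K4me3 ranks of 84.6% and 79.7%. The H3.3-like gene his-69 on chromosome III had CFP-1 scores of 63.8 and 43.1 beside an end, and H3K4me3 scores of 56.5 and 44.6. An end of 1 other gene also lay within 500 bp of each of these peaks. No CFP-1 peak lay between his-69 and his-70.

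The strongest CFP-1 peaks lay at clustered loci. A peak in both CFP-1 lists was found at 65 of 67 clustered genes, or 97.0%, and at 4 of 5 isolated genes, or 80.0%. H3K4me3 was called in both lists at 66 of 67 clustered and 5 of 5 isolated genes. Of the 15 clustered loci, 13 in RC03 and 12 in RC04 had a CFP-1 peak in the upper 5% of the list, and none of the 5 isolated loci had one in either list. The median over loci of the highest CFP-1 score was 167 and 166 for clustered loci, and 78.1 and 80.8 for the 4 isolated loci with a peak. A highest score favours loci with more peaks, and the clustered loci had 47 and 39 CFP-1 peaks against 6 and 7. For the 5 clustered loci of 2 genes, with 5 peaks per list, that median was 124 and 127, and 3 and 2 had an upper 5% peak. For the 10 larger loci it was 174 and 173, and all 10 had such a peak in both lists. Over distinct peaks, the median score was 124 and 147 at clustered genes and 40.6 and 13.7 at isolated genes. The median width was 896 and 792 bp at clustered and 489 and 374 bp at isolated genes. For H3K4me3 the median scores over distinct peaks were 69 and 62.7 at clustered against 34.2 and 27.1 at isolated genes, but the highest scores of all belonged to isolated genes.

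No test was made between clustered and isolated genes, as copies share peaks and 5 genes are few. Arrangement also went with histone class. Every H2A, H2B, H3 and H4 gene was clustered, while the isolated genes were his-24 (H1), his-71, his-72 and his-74 (H3.3 kind) and the unclassed his-73. The clustered H3.3-like gene his-69 had CFP-1 ranks of 85.3% and 77.2%, at peaks that also lay near an end of another gene, and his-70 had no peak. Arrangement and class therefore cannot be told apart here. At a limit of 250 bp the difference in median CFP-1 rank was 17.4 instead of 36.3 percentage points, and at 1000 bp the difference in the share with CFP-1 turned from 17.01 to -2.99 percentage points, because his-73 then gained a peak. With a peak required at each gene end, H3K4me3 was called in both lists at 65 of 67 clustered and 4 of 5 isolated genes, which turned that difference from -1.49 to 17.01 percentage points.

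The isolated genes were not alike. The linker histone gene his-24 on the X chromosome had the highest H3K4me3 scores of all his- genes, 104.1 in RC03 and 97.5 in RC04, ranks of 98.9% and 99.3%. Its H3K4me3 peak spanned the gene, at chrX:14489840-14491535 in RC03, and its higher CFP-1 peaks scored 71.2 and 75.6. A second, wider CFP-1 peak of 907 bp in RC03 and 1018 bp in RC04 lay beside each of these, with scores of 9.95 and 13.7. The H3.3 gene his-72 on chromosome III lay under wide peaks of both antibodies. Its CFP-1 peaks were 2528 and 2176 bp wide with scores of 97.6 and 101.1, and its H3K4me3 peaks were 3561 and 3517 bp wide with scores of 72.2 and 96.3; ends of at least 1 other gene lay within 500 bp of each.

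The other H3.3 gene, his-71 on the X chromosome, had weak CFP-1 calls. In RC03 the highest CFP-1 peak there reached 4.75, and in RC04 it reached 10.0, both below the median of their lists, beside H3K4me3 scores of 17.96 and 31.4. The gene his-74, also H3.3-like and on chromosome V, showed the reverse balance, with CFP-1 scores of 85.1 and 86.0 and H3K4me3 scores of 16.7 and 8.37. Ends of at least 1 other gene lay within 500 bp of each of these peaks, and CFP-1 covered only 7.81% and 7.66% of his-74. Without strand, peaks of his-74 and peaks of a neighbour cannot be told apart, and this was not tested. So among the 5 genes of the H3.3 kind, the highest CFP-1 score ran from no peak at his-70 to 101.1 at his-72.

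**Figure D5:**
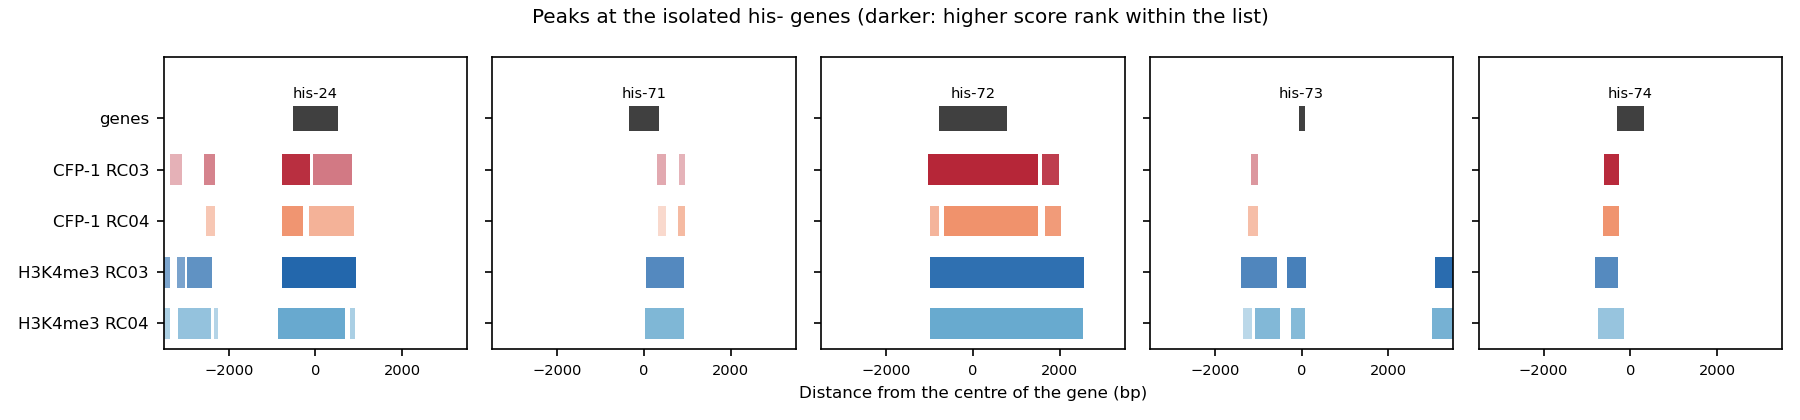
Peaks of the 4 lists (coloured bars, darker for a higher score rank within the list) at the 5 isolated his- genes (dark boxes); the x axis is the distance from the centre of the gene in bp. Wide bars of both antibodies cover his-72, the CFP-1 bars at his-71 are short and pale, and none lies at his-73 itself.

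Genes of related function were examined through lists of histone variants and linker histones with other names, and of histone mRNA processing factors and chaperones. Of 11 variant and linker genes, 8 had a peak in both CFP-1 lists, beside 26% of all genes, and 5 in both H3K4me3 lists, beside 30.6%. The H2A.Z gene htz-1 had CFP-1 scores of 150.9 and 147.3 and H3K4me3 scores of 109.6 and 98.7. The linker histone genes were divided. A peak lay at hil-2, hil-3 and hil-7 in all 4 lists. At hil-4 and hil-5 a peak lay in both CFP-1 lists but not in both H3K4me3 lists, and hil-1, hil-6 and hil-8 had no peak in any list. The centromeric H3 gene hcp-3 had CFP-1 scores of 27.96 and 20.4 and H3K4me3 scores of 71.7 and 68.7, and its paralogue cpar-1 had CFP-1 scores of 7.32 and 6.97 and no H3K4me3 peak.

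Of the 13 processing and chaperone genes, 11 had a peak in both CFP-1 lists, beside 26% of all genes, and 11 in both H3K4me3 lists, beside 30.6%. Of the others, hmg-3 had none, and asfl-1 had a peak in H3K4me3 RC04 alone. The gene cdl-1 encodes the stem-loop binding protein that acts on histone mRNAs, and it had CFP-1 scores of 53.7 and 57.04 and H3K4me3 scores of 52.5 and 39.2. The highest CFP-1 scores of this list belonged to lin-53, which encodes a histone-binding protein, with 152.6 and 156.2, and to unc-85, which encodes an ASF1 histone chaperone, with 145.6 and 148.5.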

How the data were processed

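Chromatin from formaldehyde-crosslinked, sonicated embryos was immunoprecipitated and sequenced, per the labels' protocols. The authors aligned reads with BWA to ce10 and called peaks with MACS2 2.0.10, 1 list per sample, per the submitters' processing notes. The deposited score is a −log10 probability, and the sources used here do not say whether it is a p or a q, nor how duplicates and the control were handled. Scores were ranked within a list only. The peak names carry a larval stage abbreviation while the labels give late embryos, and the labels were followed. Without read depth no counting interval can be given.

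Gene ends came from the RefSeq table of WBcel235 (72 of 72 members matched by symbol), without strand and, for 69 members, with lengths that are multiples of 3, which points to coding lengths for most. A gene was called where a peak lay within 500 bp of either end. Peaks shared by genes were counted once. Gene classes came from general knowledge of the products, and 15 genes each of H4, H3, H2A and H2B had the most common length of their class, 312, 411, 384 and 369 or 372 bp. The members and lists were chosen with earlier results of these data known. The plan included promoter motifs, which were not run, as no sequence was used here. The permutation test over lists was exact; all else is description. The distance code was tested on simulated data and against a brute-force count, and both matched. Genes named singly were the exceptions, the isolated genes, the highest peak of each cluster and the highest-ranked genes. Figures were drawn with matplotlib 3.10.9, and values came from pandas 2.3.3, scipy 1.17.1 and numpy 2.4.6 under Python 3.11.15.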

Additional observations from a re-analysis of the deposited data

How the results depend on the processing

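Of 105 values under alternative settings, 80 stayed the same, meaning the same direction, a count within 1.5 times or a shift below the SD between lists, 22 moved and 3 reversed. The causes were not tested except where given. Counts stayed between 65 and 71 genes, except that a limit on the middle of the peak in place of its edge gave 43 genes for H3K4me3, since the middle of a wide peak lies far from most genes under it. That setting also reversed the difference between the antibodies to -27.8 percentage points (exact permutation p = 0.3333). Numbers RC03 and RC04 are not stated to mark a shared extract; as a replicate block the difference was 2.08 percentage points (exact sign-flip p = 0.5, the smallest possible). Requiring a peak at each gene end was chosen after seeing the data, as were the alternatives for gaps.

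For CFP-1, the clustered minus isolated share was 17.01 percentage points. It was 14.03 at 0 bp, -2.99 at 1000 bp, 37.01 with the peak middle and also with peaks above the list median, 18.5 for either list, 18.2 for clusters of at least 4 genes, 54.03 with a peak at each end, and 17.01 to 18.5 with 1 list left out. For H3K4me3 the share difference of -1.49 became -43.3 with the peak middle, 0 for clusters of at least 4 genes and 17.01 with a peak at each end. The CFP-1 rank difference of 36.3 was 17.4 at 250 bp and 56.1 for peaks near no other gene end, and 29.7 to 42.8 with 1 list left out. The CFP-1 width difference of 412.5 bp was 324 bp at 250 bp, 454 bp at 1000 bp, 464 bp for clusters of at least 4 genes and 472.5 bp near no other gene end. The H3K4me3 rank difference of 13.5 was 14.9 for clusters of at least 4 genes and 8.33 near no other gene end. The H3K4me3 width difference of 856 bp was 349 bp at 1000 bp, 1211 bp for clusters of at least 4 genes and 256 bp near no other gene end. Chain distances of 2 and 10 kb changed none of these. CFP-1 covered 31 short gap centres under all alternatives run, and 3 to 6 long ones with 1 list left out. Absence of a peak is not absence of binding or of the mark, as depth is unknown.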

Other observations

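Of the 53 distinct CFP-1 peaks at his- genes in RC03, 15 scored below the median of the list, and 6 of these overlapped a peak of RC04. In RC04, 5 of 46 were below the median, and all 5 overlapped a peak of RC03. Above the median, all 38 peaks of RC03 and all 41 of RC04 overlapped a peak of the other list. Of the H3K4me3 peaks at his- genes, 36 of 37 in RC03 and 42 of 43 in RC04 overlapped a peak of the other list. The same shares were not computed over all peaks of the lists. These counts therefore do not show whether overlap differs at his- genes.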
